A study of Mus musculus with 10 samples.

Results

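The 10 genes described here build, lengthen, desaturate and activate fatty acids: Acaca and Fasn for chain synthesis, Elovl6 and Elovl5 for elongation, Scd1, Scd2, Fads1 and Fads2 for desaturation, and Acsl3 and Acsl4 for activation. They were taken by symbol, and all 10 were found among the 38087 genes of the tables. The cells were wild type NIH3T3, an established mouse fibroblast line, so every value is from 1 line. They were kept at 37 °C for 4 h and then at 38 or 33 °C for 16 h, and the temperature was then moved to 33 °C (downshift) or 38 °C (upshift). Total RNA depleted of ribosomal RNA was sequenced at 0, 1, 3, 6 and 9 h after each shift, with 1 sample per time, 10 samples in all. No course was held at a constant temperature, so time after the shift and time in culture cannot be told apart within a course.

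In fatty acid synthesis, acetyl-CoA carboxylase makes malonyl-CoA, fatty acid synthase joins these units into palmitate, and elongases of the endoplasmic reticulum lengthen the product. Desaturases then put double bonds into the chains, and acyl-CoA synthetases attach coenzyme A so that the chains can enter phospholipids and stored fat. Membranes with more unsaturated chains stay fluid at lower temperatures, and desaturases are induced by cold in many organisms.

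Each sample has 2 complete sets of columns, numbered series 5 and 11 in the downshift and series 2 and 13 in the upshift, and the labels do not explain these numbers. Setting series 2 beside 5 and series 11 beside 13 was a choice made here from the data, so differences within a set rest on that pairing. A series numbered 10 adds the downshift at 1 and 3 h and was used as an alternative. Exon totals per column ran from 22403625 to 48004854, and intron totals from 15313374 to 25233405. Columns of the same sample were joined and counted as 1 sample. Levels often differed more between the 2 columns of a sample than along a course, so fits to series 2 with 5 and to series 11 with 13 alone are given where they end a call. All 8 fibroblast markers stood at 1 RPKM (reads scaled to exon length and library size) or more in every sample. Of 6 adipocyte markers, Lpl was the 1 that reached 1 RPKM, while Adipoq, Plin1, Cidec, Fabp4 and Pparg had medians between 0 and 0.00949 RPKM. Of the epithelial, leukocyte and endothelial markers, Cd68 (median 1.48 RPKM) and Cdh5 (median 0.794) alone reached 1 RPKM in any sample. Summed over its 8 genes, the fibroblast list spanned 6288 to 7260.1 RPKM in the downshift and 8344 to 9572 in the upshift. Most of this sum came from S100a4 (median 4946 RPKM) and Vim (1433). The part of this list in the results was not tested. As in any bulk sample, a change in the share of cells that express a gene and a change in RNA per cell cannot be told apart.

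Per kilobase of exon, Scd2 was the most abundant of the 10, with a median level of 318 RPKM over the samples and a range of 246 to 443. Fasn followed with a median of 108 (range 100 to 121) and Scd1 with 84.0 (66.1 to 96.6). The medians of Fads1, Fads2 and Elovl5 were 65.3, 44.6 and 37.7 RPKM, and their ranges overlapped from each to the next. Acsl4 (28.4), Acsl3 (24.2), Elovl6 (19.6) and Acaca (10.8) had the lowest medians, and Acaca ranged from 9.85 to 12.6, below every sample of the other 9. In any column the fewest exon reads of a member were 1971, for Acsl3, and the fewest intron reads 395, for Scd1.

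Acsl4 differed most between the courses, rising toward 33 °C and falling toward 38 °C. Acaca had the same direction at a smaller size, although its difference was 0.09 and not called in series 11 and 13 alone. Fads2, Acsl3 and Elovl5 went the other way, rising toward 38 °C with no called change toward 33 °C. The calls of Elovl5 held in neither set of series alone, and those of Fads2 did not hold in series 2 and 5. Scd2 and Elovl6 rose in both courses, although Elovl6 did not rise in the downshift in series 11 alone (-0.09). Fasn was called upward in the upshift only, and Scd1 and Fads1 passed the test in neither course. None of the 4 desaturases was called higher in the downshift than in the upshift. These statements rest on the fitted change from 0 to 9 h, a line on the log2 of hours plus 1, tested with edgeR across all 10172 genes with a mean of at least 1 RPKM. A change is called at an adjusted p below 0.05. The difference is the downshift change minus the upshift change, so it is positive for genes that moved upward toward 33 °C relative to 38 °C, and the mean averages both courses.

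In the downshift 4 members rose (Acaca, Elovl6, Scd2, Acsl4) and none fell, where 16.5% of all tested genes rose and 16.0% fell. The members' median change was 0.21 on the log2 scale, against 0.01 over all tested genes. In the upshift 6 members rose (Fasn, Elovl6, Elovl5, Scd2, Fads2, Acsl3) and 2 fell (Acaca, Acsl4), where 14.6% of all genes rose and 19.0% fell, with medians of 0.30 for the members and -0.02 for all genes. The difference was positive for 2 members (Acaca, Acsl4) and negative for 3 (Elovl5, Fads2, Acsl3), against 25.4% and 21.8% of all genes, so this count is close to the background. The mean change was called upward for 3 members (Elovl6, Scd2, Acsl3) and downward for none, against 1.28% and 2.18% of all genes.

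**Figure D1:**
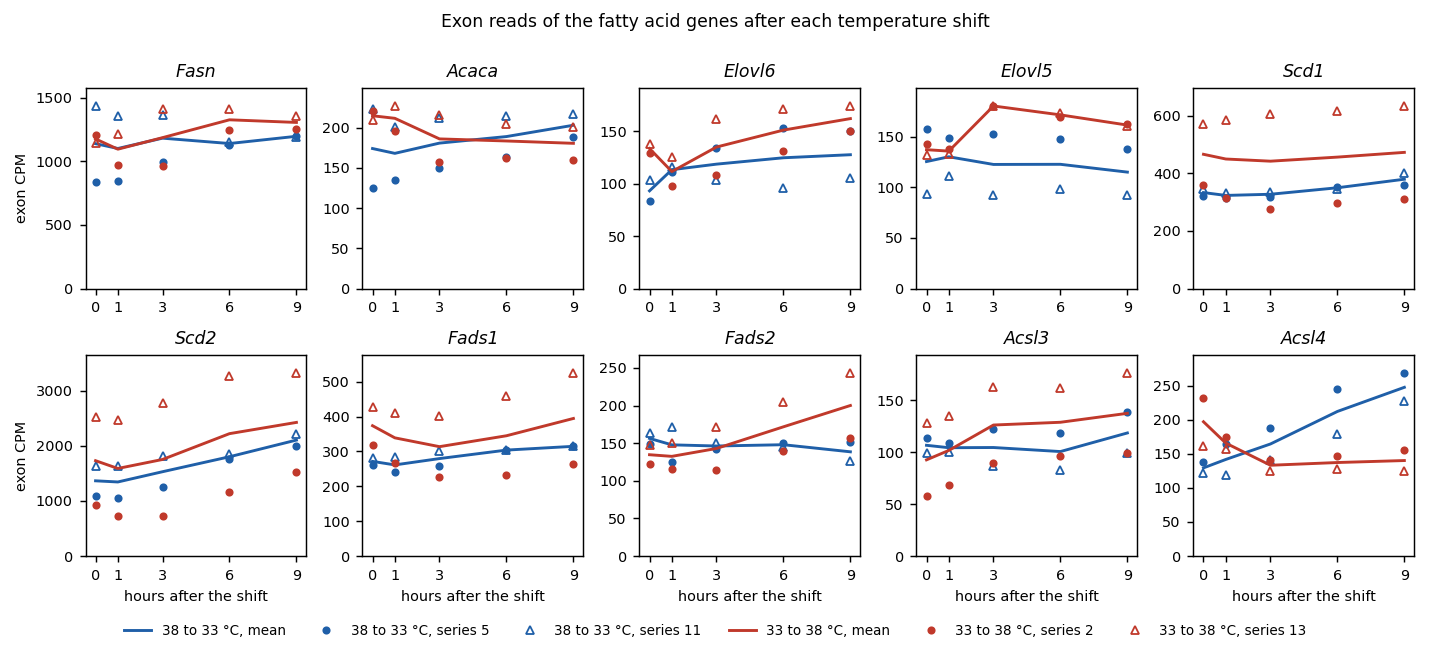
Exon reads of the 10 genes against hours after the shift, in TMM-scaled CPM on linear axes from 0. Lines are the mean of the 2 columns of a sample, filled circles series 5 (downshift) or 2 (upshift), and open triangles series 11 or 13. The Acsl4 lines cross between 1 and 3 h, and the series of Scd2 and Acsl3 lie far apart in the upshift.

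Acsl4 activates long polyunsaturated acids, arachidonate above all, for entry into phospholipids. It lies on chromosome X from 142317993 to 142390535, minus strand (coordinates of the mouse genes here are those of GENCODE M21 on GRCm38). The 250 bases before its start (GRCm38.p6, RefSeq, chrX:142390536-142390785, minus strand) are shown because this member differed most between the courses. Capitals mark 2 overlapping matches to the GC box, GGGCGG on either strand.

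Acsl4: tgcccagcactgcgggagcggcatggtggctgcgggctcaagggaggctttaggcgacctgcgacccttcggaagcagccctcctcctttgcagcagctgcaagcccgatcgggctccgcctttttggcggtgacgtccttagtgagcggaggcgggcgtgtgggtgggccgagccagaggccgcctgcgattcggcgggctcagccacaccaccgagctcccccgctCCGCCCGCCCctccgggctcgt

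Its exon level in the downshift was 129, 142, 165, 212 and 248 CPM (reads scaled to library size with TMM factors, mean of the 2 columns) at 0, 1, 3, 6 and 9 h. In the upshift it was 197, 166, 133, 137 and 140.3 CPM. Thus it was highest in cells 9 h after the move to 33 °C, and next at 6 h of that course and in cells at 33 °C before the upshift. The downshift change was 0.94 ± 0.12 (log2 change ± SE, 5 times, edgeR adjusted p = 0.00155), the upshift change -0.50 ± 0.12 (adjusted p = 0.0103) and the difference 1.44 ± 0.17 (adjusted p = 0.000197). Both sets of series gave the difference, 1.53 in series 2 and 5 and 1.31 in series 11 and 13, each called. The upshift change was -0.57 in series 2 and, not called, -0.41 in series 13. Without the 0 h sample of the upshift it was -0.33 and no longer called, while the downshift change and the difference were called without any 1 sample.

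Before the shift, cells kept at 33 °C had more Acsl4 exon reads than cells kept at 38 °C in both sets of series, by 0.76 and 0.41 on the log2 scale. At 9 h the cells then at 33 °C were higher by 0.79 and 0.86. There is 1 sample on each side, so these levels were not tested.

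Intron reads, which come largely from unspliced RNA, moved less for Acsl4. In the downshift they were 293, 325, 324, 372 and 404 CPM of all intron reads, and in the upshift 308, 311, 299, 315 and 302. Along the downshift they climbed in the later samples, while the upshift samples lay within a narrow range. The intron fit called the downshift change at 0.43 ± 0.09 (edgeR adjusted p = 0.0404), a call lost without any 1 of 8 of the 10 samples (adjusted p up to 0.199) and in each set of series alone (0.46 and 0.39). The upshift change was -0.02 ± 0.09 (adjusted p = 0.943), and the difference of 0.44 ± 0.12 missed the threshold (adjusted p = 0.0529).

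Exon reads per intron read of Acsl4 changed in both courses. The ratio was 0.719, 0.700, 0.850, 1.04 and 1.05 in the downshift and 1.25, 1.04, 0.831, 0.775 and 0.816 in the upshift. The plot of exon reads per intron read shows the 2 courses exchanging places, with the highest ratio in cells at 33 °C before the upshift. The ratio rose by 0.66 ± 0.15 in the downshift (edgeR adjusted p = 0.0292), where 3.05% of all 9375 genes tested rose, and changed by -0.68 ± 0.16 in the upshift (adjusted p = 0.0203), where 5.24% of genes fell. Acsl4 was the 1 member called in each of these. Its difference was 1.34 ± 0.22 (adjusted p = 0.000968), again the 1 member called upward, against 16.1% of all genes and a median of 0.28 over all genes. On this scale both exon and intron reads are divided by exon library size. With each read type on its own scale the difference was 0.99 and still called, while the changes within each course, 0.51 and -0.48, were not. In series 11 and 13 alone the difference was 1.08 with an adjusted p of 0.0667. Neither set of series alone called the downshift change (0.74 and 0.54) or the upshift change (-0.78 and -0.54). The change in the downshift was not called without its sample at 0, 1, 6 or 9 h or without the upshift sample at 6 h (values 0.59 to 0.91), nor the upshift change without its sample at 0 h (-0.51) or 6 h (-0.64).

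**Figure D2:**
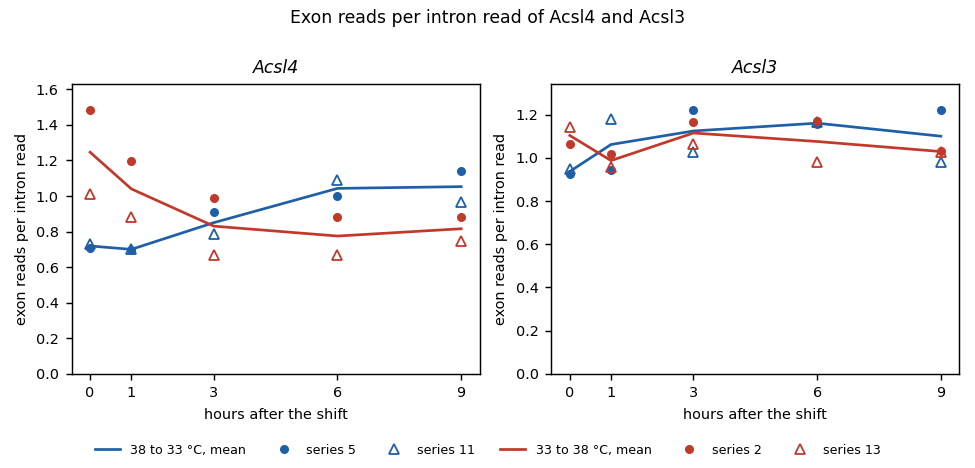
Exon reads per intron read of Acsl4 (left) and Acsl3 (right) against hours after the shift. Lines are the mean of the 2 columns of a sample, and points show each series. The ratio of Acsl4 goes from 0.719 to 1.05 in the downshift and from 1.25 to 0.816 in the upshift, while that of Acsl3 lies between 0.937 and 1.16 in all 10 samples.

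Acsl3, an acyl-CoA synthetase of the endoplasmic reticulum and lipid droplets, rose in the upshift, where Acsl4 fell, and had no called change in the downshift. It lies on chromosome 1 from 78657825 to 78707743, plus strand, and shares bases with Utp14b on the same strand, whose reads may not have been separated. Its 250 bases before the start (GRCm38.p6, RefSeq, chr1:78657575-78657824, plus strand) are set beside those of Acsl4 for its opposite upshift change. Capitals mark the GC box, found 5 times on either strand, and 1 CCAAT box (CCAAT on either strand) that stands directly before the last of them.

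Acsl3: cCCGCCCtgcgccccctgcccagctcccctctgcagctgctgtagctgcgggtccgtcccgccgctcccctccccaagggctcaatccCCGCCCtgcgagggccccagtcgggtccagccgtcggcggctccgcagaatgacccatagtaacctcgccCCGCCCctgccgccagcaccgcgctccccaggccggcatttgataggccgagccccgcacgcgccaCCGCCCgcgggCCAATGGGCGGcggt

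Its exon level was 107, 104, 105, 101 and 119 CPM in the downshift and 92.7, 102, 126, 129 and 138 CPM in the upshift. The 3 late upshift samples lay above every downshift sample. In the upshift it rose by 0.58 ± 0.10 (edgeR adjusted p = 0.00239), in both sets of series (0.86 and 0.48) and without any 1 sample. The downshift change was 0.09 ± 0.10 (adjusted p = 0.514), and the difference -0.49 ± 0.14 (adjusted p = 0.0150). The difference was called in each set of series (-0.61 and -0.62), but not without the 0 h sample of the downshift (-0.39) or of the upshift (-0.50). The mean change of 0.33 ± 0.07 (adjusted p = 0.0308) lost its call without any 1 of 7 of the samples, with values from 0.24 to 0.38, and was 0.55 in series 2 and 5 and, not called, 0.17 in series 11 and 13. Series 2 held 57.4 CPM at 0 h of the upshift and series 13 held 128, so the gap between the columns exceeded the change along the course.

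Acsl3 intron reads were 159, 197, 204, 210.0 and 230.4 CPM in the upshift and 185, 160.3, 155, 157 and 184 in the downshift. At 1 h of the upshift they were already 1.24 times the 0 h level. The fitted upshift change of 0.43 ± 0.13 was not called (edgeR adjusted p = 0.11), and neither was the ratio difference of 0.34 ± 0.24 (adjusted p = 0.365).

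Elovl5 lengthens polyunsaturated chains between desaturation steps. The gene lies on chromosome 9 from 77917364 to 77984519, plus strand. The bases before its start (GRCm38.p6, RefSeq, chr9:77917115-77917364, plus strand) are shown because its introns moved most in the first hour. Capitals mark an E-box (CACGTG), a heat shock element core (GAANNTTC) and 2 CCAAT boxes on the minus strand, with no overlap.

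Elovl5: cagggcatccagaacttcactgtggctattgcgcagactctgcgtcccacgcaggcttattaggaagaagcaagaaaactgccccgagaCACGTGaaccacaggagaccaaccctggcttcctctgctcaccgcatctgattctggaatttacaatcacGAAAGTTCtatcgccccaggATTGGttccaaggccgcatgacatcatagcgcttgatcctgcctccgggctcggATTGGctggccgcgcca

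Elovl5 intron reads in the upshift were 175, 321, 220.3, 210.3 and 198 CPM, a peak at 1 h. In the downshift they were 197, 141, 160.1, 156 and 156 CPM, with the lowest sample at 1 h. The 1 h level was 1.84 times the 0 h level after the upshift (1.66 in series 2 and 2.04 in series 13) and 0.718 times after the downshift (0.664 in series 5 and 0.797 in series 11). No test was made of the first hour, since each time has 1 sample. With a fold of at least 1.2 the same way in both columns, a rule set after these values were seen, 13.3% of the 9375 genes were higher and 9.76% lower at 1 h of the upshift, and 9.61% higher and 11.7% lower at 1 h of the downshift. By this rule Elovl5, Fads2 and Acsl3 were higher at 1 h of the upshift and Elovl5 was lower at 1 h of the downshift. No member passed the same rule in exon reads, where the share of all genes was not counted, so this count has no background. The line over time, which does not describe a peak, called neither course for the intron reads of Elovl5 (-0.13 ± 0.31 in the upshift, edgeR adjusted p = 0.858, and -0.23 ± 0.29 in the downshift, adjusted p = 0.695).

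**Figure D3:**
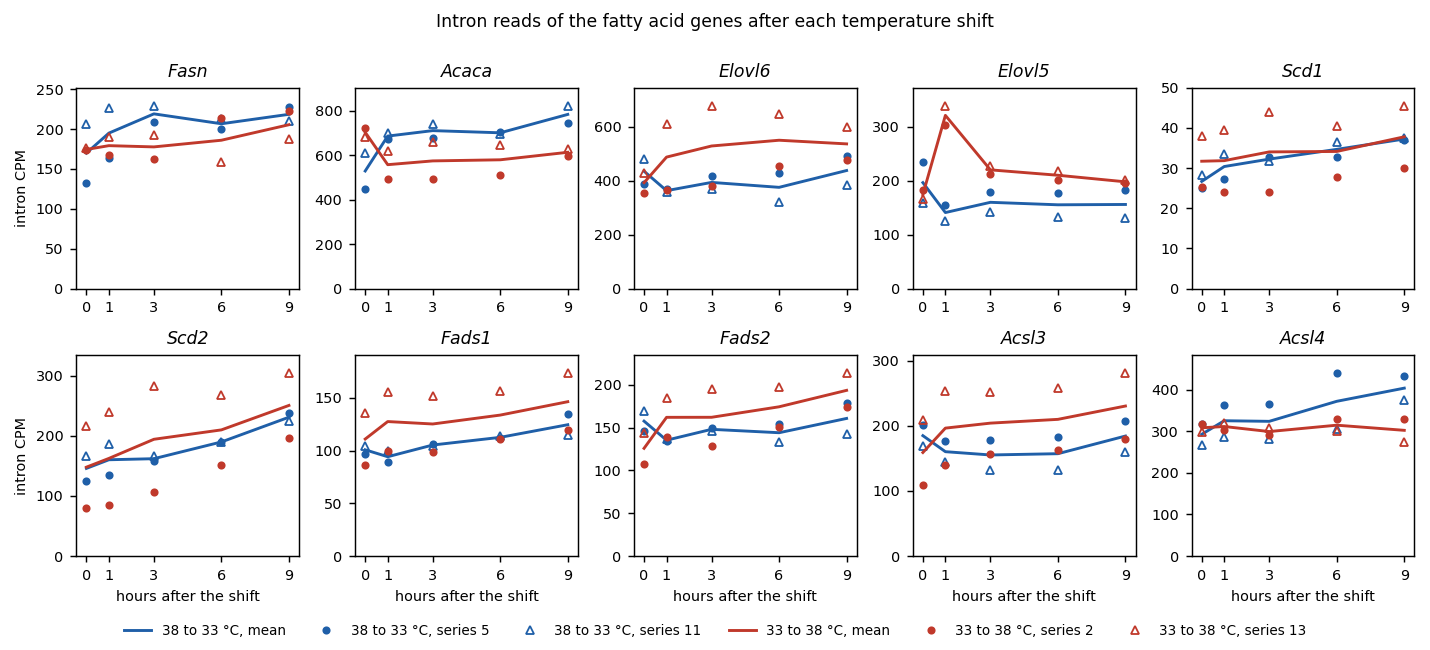
Intron reads of the 10 genes against hours after the shift, in CPM of all intron reads, TMM-scaled, on linear axes from 0. Lines are the mean of the 2 columns of a sample, circles and triangles the single series. Elovl5 stands at 321 CPM at 1 h of the upshift in the mean and above 300 in both series, and the lines of Acaca cross within the first hour.

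Exon reads of Elovl5 were 137, 136, 180.2, 171 and 161 CPM in the upshift and 125, 130.1, 123, 123 and 115 CPM in the downshift. All 3 upshift samples from 3 h on were above the other 7. The upshift change was 0.35 ± 0.12 (edgeR adjusted p = 0.0449) and the difference -0.48 ± 0.17 (adjusted p = 0.0379). Neither call held in series 2 and 5 alone (0.32 and -0.47) or in series 11 and 13 alone (0.42 and -0.50). Without any 1 of 8 samples the upshift change lost its call, with values from 0.29 to 0.51 over all omissions, and the difference lost it without any 1 of 7, with values from -0.64 to -0.42.

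Fads2 performs the opening desaturation of polyunsaturated acids and lies on chromosome 19 from 10062765 to 10101746, minus strand. Its exon level was 156, 148, 146, 148 and 139 CPM in the downshift and 135, 133, 143, 172 and 200.1 CPM in the upshift. The 6 and 9 h samples of the upshift were above the other 8. It rose by 0.57 ± 0.10 in the upshift (edgeR adjusted p = 0.00235), with a downshift change of -0.11 ± 0.10 (adjusted p = 0.411) and a difference of -0.69 ± 0.14 (adjusted p = 0.00305). Both calls held without any 1 sample. In series 2 and 5 alone neither was called (upshift 0.39, adjusted p = 0.0671, and difference -0.30, adjusted p = 0.291), while in series 11 and 13 both were (0.73 and -1.09). Before the shift, cells kept at 33 °C had less Fads2 than cells kept at 38 °C in both sets, by -0.29 and -0.15 on the log2 scale. Intron reads were 126, 162, 162, 174 and 194 CPM in the upshift, higher in every later sample than at 0 h, but their fitted change of 0.52 ± 0.12 missed the threshold (adjusted p = 0.0587).

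Fads1, the partner desaturase that acts after Fads2 and Elovl5, lies on chromosome 19 from 10182888 to 10196877, plus strand, and hosts Mir6993 on the same strand. Its exon level was 271, 261, 279.6, 304 and 315 CPM in the downshift and 374, 339, 314, 345 and 395 CPM in the upshift. The lowest upshift sample, at 3 h, was close to the highest downshift sample. The difference was 0.20 ± 0.16 (edgeR adjusted p = 0.303), with an interval of 2 SE from -0.11 to 0.52. It was called upward in series 2 and 5 alone (0.62) and not in series 11 and 13 (-0.11). It was also called without the 9 h sample of the upshift (0.40), while over all omissions it ranged from -0.02 to 0.40.

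Scd1 and Scd2 insert the first double bond into saturated chains, giving oleate and palmitoleate. They lie near each other on chromosome 19, Scd1 from 44394455 to 44407879 on the minus strand and Scd2 from 44293674 to 44306864 on the plus strand, where it hosts Mir5114. Reads of such close paralogs can be shared, so the split between them is uncertain.

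Scd2 exon reads were 1364, 1343, 1528, 1799.7 and 2102 CPM in the downshift and 1729, 1588, 1751, 2219 and 2422 CPM in the upshift. Both courses had their lowest sample at 1 h and their highest at 9 h. The gene rose by 0.64 ± 0.14 in the downshift (edgeR adjusted p = 0.00864) and by 0.56 ± 0.14 in the upshift (adjusted p = 0.0142), a mean change of 0.60 ± 0.10 (adjusted p = 0.0143). Its mean change was called in each set of series (0.85 and 0.43), while the upshift change was not called in series 2 alone (0.77, adjusted p = 0.0560). Each course's call needed its own 9 h sample: without it the change was 0.47 in the downshift and 0.42 in the upshift, and the mean was 0.51 or 0.53, none of them called. The difference was 0.09 ± 0.20 (adjusted p = 0.748), with an interval of 2 SE from -0.31 to 0.48.

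Introns of Scd2 rose as well, and in each course Scd2 was the member with the largest intron change. They were 146, 160.1, 162, 189.7 and 231 CPM in the downshift and 148, 162, 194, 209.7 and 250.4 CPM in the upshift, with the highest sample at 9 h of each. The intron fit gave 0.61 ± 0.12 in the downshift (edgeR adjusted p = 0.0406) and 0.70 ± 0.13 in the upshift (adjusted p = 0.0280). With Acsl4 this makes 2 members called upward in the downshift, where 1.07% of 9375 genes were, and 1 in the upshift, where 0.885% were. In series 11 and 13 alone neither change was called (0.32 and 0.46). The downshift call was also lost without any 1 of 7 samples and the upshift call without any 1 of 3, with values of 0.41 to 0.74 and 0.58 to 0.83.

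Scd1 exon reads were 333, 323, 327, 349.9 and 379.6 CPM in the downshift and 466, 449.7, 442, 456 and 473 CPM in the upshift. Every upshift sample was above every downshift sample, 0 h included. Series 13 held 571 to 634 CPM, while series 2 of the same course held 277 to 361 and series 5 of the downshift 314 to 359.5. Along the courses the change was 0.17 ± 0.07 in the downshift (edgeR adjusted p = 0.0918) and 0.03 ± 0.07 in the upshift (adjusted p = 0.809). Without the 0 h sample the downshift change was 0.32 and called, while over all omissions it ranged from 0.07 to 0.32. The difference was 0.14 ± 0.10 (adjusted p = 0.264), with an interval of 2 SE from -0.06 to 0.35. It was 0.38 in series 2 and 5 and 0.01 in series 11 and 13, neither called. The first of these lies above the interval, so the interval does not hold the spread between the series.

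**Figure D4:**
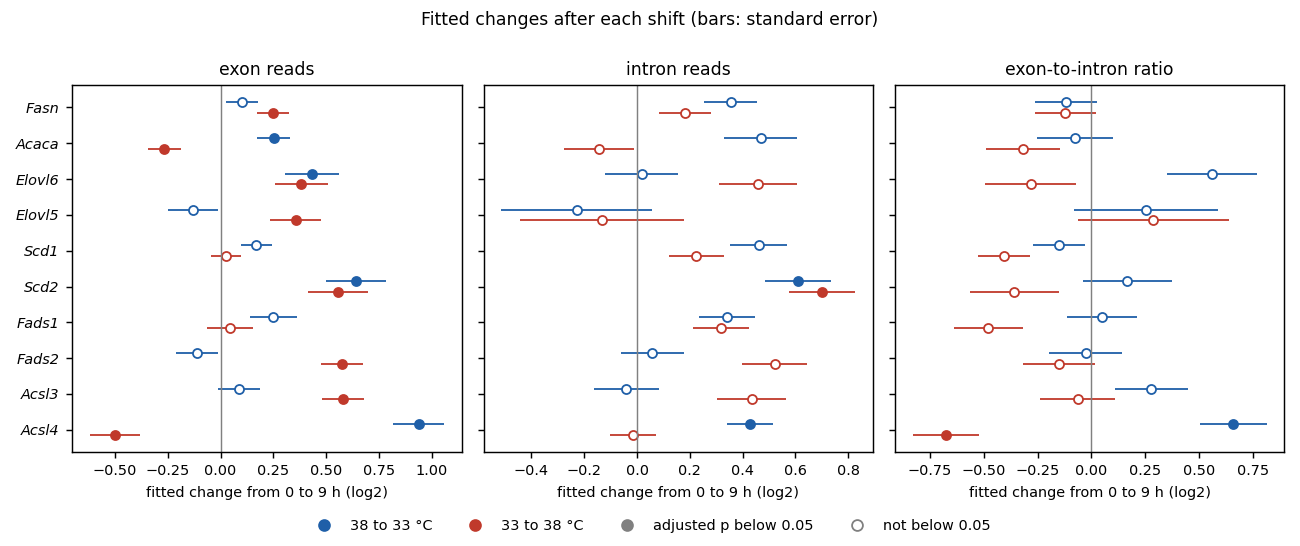
Fitted log2 change from 0 to 9 h in exon reads, intron reads and the exon-to-intron ratio, for each gene and course, with standard errors as bars. Filled points have an adjusted p below 0.05 over all tested genes. Exon points of Acsl4 lie at 0.94 and -0.50, on opposite sides of 0, and those of Scd2 at 0.64 and 0.56, on the same side.

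Acaca, the carboxylase that commits carbon to fatty acids, lies on chromosome 11 from 84129672 to 84401651, plus strand, and overlaps Gm37391 on its strand and Gm11437 on the other. Its exon level was 174, 168, 181, 189 and 203 CPM in the downshift and 215, 212, 186, 184 and 181 CPM in the upshift. Cells at 33 °C for the longest times, at 0 h of the upshift and 9 h of the downshift, were among the 3 highest samples, with the 1 h sample of the upshift. It rose by 0.25 ± 0.08 in the downshift (edgeR adjusted p = 0.0312) and changed by -0.27 ± 0.08 in the upshift (adjusted p = 0.0258), a difference of 0.52 ± 0.11 (adjusted p = 0.00372) that was called without any 1 sample. The 2 sets of series did not give the same size: the difference was 1.00 in series 2 and 5 and 0.09 in series 11 and 13, where it was not called (adjusted p = 0.616). The changes within the courses were 0.55 and -0.45 in series 2 and 5, both called, and 0.01 and -0.09 in series 11 and 13, neither called. Those calls were also lost without the downshift sample at 1, 6 or 9 h (0.22, 0.28 and 0.15) and without the upshift sample at 0, 1, 6 or 9 h (-0.33 to -0.23).

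Acaca introns passed the first-hour rule in neither course, since 1 of the 2 columns fell short of the fold each time. They were 529, 686, 710.2, 700.4 and 783 CPM in the downshift and 703, 557, 574, 579 and 613 CPM in the upshift. At 1 h they were 1.30 times the 0 h level in the downshift (1.49 in series 5 and 1.15 in series 11) and 0.793 times in the upshift (0.684 in series 2 and 0.908 in series 13). All later downshift samples were above 0 h and all later upshift samples below it. Over the 9 h the difference was 0.61 ± 0.19 and was not called (edgeR adjusted p = 0.0741).

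Fasn, fatty acid synthase, lies on chromosome 11 from 120805846 to 120824547, minus strand. It was read at 1138, 1101, 1182, 1139.5 and 1196 CPM in the downshift and 1176, 1095, 1186, 1326 and 1305 CPM in the upshift. The 6 and 9 h samples of the upshift were the highest. Its upshift change of 0.25 ± 0.08 was called (edgeR adjusted p = 0.0294), but not without the 1, 6 or 9 h sample of that course (0.20, 0.21 and 0.25), nor in series 2 and 5 alone (0.17). The downshift change of 0.10 ± 0.08 (adjusted p = 0.319) joined opposite directions, 0.55 in series 5 and -0.29 in series 11, each called alone. The difference was -0.15 ± 0.11 (adjusted p = 0.280), with a called -0.60 in series 11 and 13.

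Elovl6, which lengthens palmitate toward stearate, lies on chromosome 3 from 129532355 to 129638495, plus strand, and overlaps Gm43072 on its strand and Gm35986 on the other. Its exon level was 93.2, 113, 119, 125 and 128 CPM in the downshift and 134, 112, 135, 151 and 162 CPM in the upshift. The 0 h sample of the downshift was the lowest of all. It rose by 0.43 ± 0.13 in the downshift (edgeR adjusted p = 0.0272) and by 0.38 ± 0.12 in the upshift (adjusted p = 0.0372), a mean of 0.41 ± 0.09 (adjusted p = 0.0364). The downshift change was 0.87 in series 5 and -0.09 in series 11, the upshift change 0.31, not called, in series 2 and 0.45 in series 13, and the mean 0.59 and, not called, 0.18. The difference was 0.56 in series 2 and 5 and a called -0.54 in series 11 and 13. The downshift call was lost without the downshift sample at 0, 6 or 9 h (0.27, 0.45 and 0.47), the upshift call without any 1 of 4 samples and the mean without any 1 of 6, with values down to 0.28 and 0.33. Its ratio of exon to intron reads was 0.347 at 0 h of the downshift against 0.666 at 0 h of the upshift. These ratios are not scaled to library totals, and a higher ratio at 0 h of the upshift was not particular to Elovl6. Those of Scd1 (20.3 and 28.4), Fasn (10.8 and 13.1), Scd2, Fads1, Fads2, Acaca, Elovl5 and Acsl4 were also higher there. The Elovl6 ratio difference of 0.84 ± 0.30 missed the threshold (edgeR adjusted p = 0.0593), against a median of 0.28 over all genes. That ratio difference was called without the 1 or 9 h sample of either course (0.95 to 1.12). Over all omissions it ranged from 0.20 to 1.12. It was 1.03 in series 2 and 5 and 0.55 in series 11 and 13, neither called.

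Across intron reads no member was called in the difference, where 7.96% of genes were called in either direction by edgeR, or in the mean, where 0% were. At an unadjusted p below 0.05 there were 4 members in the difference, against 26.7% of all genes, and 7 in the mean, against 10.0%. DESeq2 called 2 members in the difference, against 15.4% of all genes, and 4 in the mean, against 1.83%. For the ratio no member was called in the mean, where 0.0107% of genes were. There 1 member had an unadjusted p below 0.05, against 3.55% of genes, and DESeq2 called 0, against 0.149%.

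Levels at 0 h compare cells that had 16 h at 33 or 38 °C. The exon level at 33 °C was above that at 38 °C for 8 of the 10 members, the exceptions being Fads2 and Acsl3. Over all tested genes the median log2 difference was 0.05. The share of all genes above 0 was not counted at either time, so these counts of members have no background. In 5 members (Scd2, Fasn, Acaca, Elovl5, Acsl3) the 2 sets of series gave opposite signs. For Scd2 the log2 difference was -0.23 in series 2 and 5 and 0.63 in series 11 and 13, and for Acsl3 -0.99 and 0.36. At 9 h the cells then at 33 °C were above those at 38 °C for 2 of the 10, Acaca and Acsl4, in both sets. The median over all tested genes was then -0.04. Fads2, Elovl5 and Fasn were below in both sets. Scd1, Scd2, Fads1, Elovl6 and Acsl3 were above in series 2 and 5 and below in series 11 and 13, with Elovl6 near 0 in the former (0.004). With 1 sample on each side these levels were not tested.

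Of the 10 members, 7 were found in the RefSeq promoter table, in which each window holds the 250 bases before a gene's start. The windows of Acaca and Fads2 lie largely within the gene as GENCODE M21 draws it. Letters were searched on both strands in those 7 and in all 32851 windows. CCAAT was present in Acsl3, Elovl5 and Fasn and in 33.8% of all windows, and GGGCGG in Acsl3, Acsl4 and Fads2 and in 32.7%. Among all windows CACGTG was present in 6.02% and GAANNTTC in 6.69%, and of the members Elovl5 held each. The sterol regulatory element, searched as TCACNCCAC, was in 1.05% of windows and in none of those 7. At so low a share, its absence from 7 windows says little about the members. Scd1, Scd2 and Fads1 had no window and were not searched.

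Around these 10 genes, 7 lists with 73 further genes of lipid metabolism were measured, of which 56 passed the expression filter. In them the exon difference was called upward for 24 genes and downward for 5, against the 25.4% and 21.8% of all genes given above. Among the 7 suppliers of carbon and NADPH, 5 were called upward and none downward, with a list median of 0.66 against 0.04 for all genes. Pgd, an enzyme of the pentose phosphate pathway that makes NADPH, went from 163 to 247 CPM between 0 and 9 h of the downshift and from 327 to 251 in the upshift (difference 1.05 ± 0.10, edgeR adjusted p = 0.000129). G6pdx, which starts that pathway, had a difference of 0.91 ± 0.10 (adjusted p = 0.000189). Idh1, the cytosolic isocitrate dehydrogenase, had 0.94 ± 0.28 (adjusted p = 0.0178), a call lost in series 2 and 5 alone (0.32) and without the 9 h sample of the downshift (0.65) or the 0 h sample of the upshift (0.81).

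In the desaturation list 4 of 6 measured genes were called upward and none downward. Fads3, a further gene of the Fads family, stood at 247, 245, 269.9, 285 and 269 CPM in the downshift and at 344, 303, 270.4, 231 and 213 CPM in the upshift. It fell in the upshift, by -0.69 ± 0.07 (edgeR adjusted p = 0.000369), and its difference was 0.88 ± 0.10 (adjusted p = 0.000194). Degs1, a sphingolipid desaturase, and Cyb5r3, a reductase that serves desaturases, had smaller differences of 0.36 ± 0.12 (adjusted p = 0.0329) and 0.33 ± 0.10 (adjusted p = 0.0190). Both lost their calls in series 2 and 5 alone and without several single samples, among them the 0 h sample of the downshift (0.33 for Degs1 and 0.30 for Cyb5r3).

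In the activation and transport list 3 of 6 measured genes were called upward in the difference (Acsbg1, Slc27a1, Acsl1) and 2 downward (Acsl5, Slc27a4). Acsbg1, an acyl-CoA synthetase, had a difference of 3.03 ± 0.34 at low levels (edgeR adjusted p = 0.000185), between 3.92 and 15.5 CPM. Acsl1, of the same family as both members, had 0.87 ± 0.18 (adjusted p = 0.00352). Acsl5 of that family went the other way, at -0.55 ± 0.18 (adjusted p = 0.0305), as did the transporter Slc27a4 at -0.56 ± 0.14 (adjusted p = 0.00972). These last 2 genes were named after their values were seen. In glycerolipid assembly 4 of 8 were called upward and 1 downward, led by Dgat2, which makes triglyceride, at 1.87 ± 0.34 (adjusted p = 0.00180). Lpin1, the phosphatidate phosphatase, had 0.88 ± 0.28 (adjusted p = 0.0282), but 0.09 and no call in series 2 and 5 alone. Of the 10 other genes of chain synthesis and elongation, 3 were called upward and 1 downward, among them Mcat of mitochondrial synthesis at 1.07 ± 0.23 (adjusted p = 0.00422) and Elovl4 at 0.80 ± 0.16 (adjusted p = 0.00284). In fatty acid oxidation 3 of 9 were called upward and none downward, and Pnpla2, the lipase that opens stored fat, had 2.25 ± 0.24 (adjusted p = 0.000148). Cpt1a, which admits fatty acids to mitochondria, had 1.09 ± 0.26 (adjusted p = 0.00710), a call lost without the 0 h sample of the upshift (0.86).

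Of 10 measured regulators, 2 were called upward (Insig1, Scap) and 1 downward (Mlx). Mlx, a partner of the carbohydrate response factors, went from 52.2 to 30.7 CPM in the downshift and from 26.8 to 49.4 in the upshift, a difference of -1.88 ± 0.26 (edgeR adjusted p = 0.000397). Insig1, a sterol-regulated gene that holds the sterol regulatory factors in the endoplasmic reticulum, had a difference of 0.61 ± 0.19 (adjusted p = 0.0255). It was not called in series 2 and 5 alone (0.38) or without the downshift sample at 1 or 9 h (0.57 and 0.33) or the upshift sample at 0 or 6 h (0.57 and 0.54). Scap at 0.25 ± 0.09 (adjusted p = 0.0440) was called in neither set of series (0.23 and 0.21). The sterol regulatory factor genes themselves were not called, Srebf1 at 0.15 ± 0.12 (adjusted p = 0.342) and Srebf2 at -0.31 ± 0.13 (adjusted p = 0.0839). Over both courses the mean was called upward for 3 genes of the 7 lists (Pcyt2 of phosphatidylethanolamine synthesis at 0.51 ± 0.09, Insig1 at 0.49 ± 0.10 and Agpat3 at 0.21 ± 0.05) and downward for 1 (Fads3 at -0.25 ± 0.05). Each of the 4 calls was lost in series 11 and 13 alone, at 0.39, 0.26, 0.17 and -0.12, and without the 9 h sample of either course, at 0.40 and 0.45, 0.35 and 0.43, 0.22 and 0.21, and -0.21 and -0.23.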

How the data were processed

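Per the labels' protocols, libraries were paired-end and strand-specific. STAR, bedtools and the build mm10 are named, without versions, per the submitters' processing notes. The deposited tables hold estimated counts per gene for exons and introns, although their names speak of RPKM, as column totals differ and whole numbers (tolerance 1e-06) make up 22.9% of the nonzero exon values. Rules for counting shared reads are not given in these sources. Counts were rounded, and the 2 columns of a sample were summed. TMM factors were taken per column, and an offset per gene carried the mix of columns. The edgeR quasi-likelihood test (edgeR 4.0.16, R 4.3.3, Benjamini-Hochberg adjustment) fitted an intercept and a slope on log2(hours + 1) per course to all 10 samples, for exon reads (mean of at least 1 RPKM, 10172 genes), intron reads (also at least 0.05 intron RPKM, 9375 genes) and their ratio. Its p-values measure the spread of the samples around the lines, 5 to a line, shared by both courses, and nothing says that the times were separate cultures. For the ratio, exon and intron reads of a sample entered as separate libraries without a term for the sample. The ratio p-values therefore do not use the pairing of the read types. RPKM used GENCODE M21 lengths, found for 95.3% of genes. The 10 members, the 7 wider lists and the tests were chosen with earlier results of these data known. The alternatives were DESeq2 1.42.0, RLE scaling, no filter, other time terms, each set of series, series 10 added, no offset, a block for time point, and each sample left out, and, chosen after seeing the data, other scaling of intron reads, a sample block and the 1.2-fold rule for the first hour. All members are named, and of each wider list those with the largest called differences and means. The fit of the exon difference was tested on simulated counts, drawn per sample without differences between series. That simulation did not cover intron reads, the ratio or the other contrasts.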

Additional observations from a re-analysis of the deposited data

Results flagged for a closer look

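In 6 results the downshift and the upshift changes differed by the edgeR test of their difference. They are the exon differences of Acsl4 (1.44), Acaca (0.52), Fads2 (-0.69), Acsl3 (-0.49) and Elovl5 (-0.48), and the exon-to-intron ratio difference of Acsl4 (1.34), on the log2 scale. Over all tested genes 47.3% were called in the exon difference and 18.0% in the ratio difference, so 5 of 10 members is close to the background of the former. The values of Acsl4 and Acaca are positive, so these genes went up toward 33 °C relative to 38 °C, and the other 3 genes did the reverse. Between series 2 and 5 and series 11 and 13 the exon difference ranged from 1.00 to 0.09 for Acaca and from -0.30 to -1.09 for Fads2.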

How the results depend on the processing

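Of 120 member values (10 genes, 3 kinds of reads, 4 contrasts), 26 were called. Of these, 25 kept their sign in both sets of series, 6 were called in both sets, and 7 were called without each sample in turn. Over 2430 alternative values, 2209 stayed on the same side of the threshold, 141 lost a call, 77 gained one and 3 reversed, all in series 11 and 13 alone: Elovl6 in the downshift (-0.0897), Fasn in the downshift (-0.29) and the Elovl6 difference (-0.54). Among those that stayed on the same side, 133 changed sign where neither value passed. Counts of members called are followed by the percent of all tested genes called under the same setting, in either direction. For omitted samples they are followed by counts of genes. In the settings of the report these percents were 32.6 (exon downshift), 33.5 (exon upshift), 47.3 (exon difference), 3.46 (exon mean), 7.96 (intron difference), 0 (intron mean) and 18.0 (ratio difference). A step in place of a line set the 0 h sample of each course against 3, 6 and 9 h, without the 1 h samples. Its counts are not given, since 0 h is 1 sample in each course. Over all genes, fewer exon changes and ratio differences passed than with the line, and more intron differences did. Members were not set against all genes under this setting. Linear hours gave 3 in the exon difference (42.6%), 5 in the exon mean (6.73%) and 2 in the intron mean (0.939%). Series 2 and 5 gave 3 in the exon upshift (29.2%), 2 in the intron mean (1.17%), and 7 members higher on the 33 °C side at 9 h in place of 2. Series 11 and 13 gave 5 in the exon upshift (21.5%), 1 in the exon mean (0.419%) and 0 in the ratio difference (5.08%). Without the offset the exon difference had 3 (47.3%) and the intron difference 1 (9.12%). DESeq2 gave 2 in the intron difference (15.4%), 4 in the intron mean (1.83%) and 2 in the ratio difference (22.4%). Series 10 added gave 1 in the intron difference (10.1%) and 1 in the intron mean (0.0852%), no filter 1 in the intron mean (0.0560%), and intron reads on the exon scale 3 in the intron difference (17.3%) and 1 in the intron mean (0.0427%). Leaving out each sample in turn, the members called ranged from 1 to 5 in the exon downshift, 4 to 8 in the exon upshift, 3 to 6 in the exon difference, 0 to 4 in the exon mean, 0 to 1 in the intron difference, 0 to 3 in the intron mean and 1 to 2 in the ratio difference. All-gene counts (up and down) moved too. Of 10172 genes they ran from 847 and 806 to 1810 and 1779 in the exon downshift. In the exon upshift they ran from 787 and 1112 to 1544 and 2025. In the exon difference they ran from 2034 and 1691 to 2676 and 2292. In the exon mean it was 27 and 51 to 208 and 330. Of 9375 genes it was 168 and 70 to 684 and 438 in the intron difference. In the intron mean it was 0 and 0 to 257 and 379. In the ratio difference it was 768 and 98 to 1468 and 179.

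The labels give no replicate numbers, but the courses share their times. With time point as a block, the difference was called for 5 members in exon reads (41.0% of genes), 0 in intron reads (0.245%) and 1 in the ratio (7.19%), and no member's call changed. Each member had at least 1971 exon reads and 395 intron reads in every column, and 1 sample per time left 5 points for each line.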
